A study of Mus musculus with 11 samples.

Results

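AGTC, CTTC and AGAG identify 3 lines of pancreatic cancer (PDAC) cells that had been tagged with DNA barcodes, mixed and later recovered from mouse lungs. They were chosen by their total reads, as the lines at ranks 5, 6 and 7. Listings with an undetermined base were dropped, the 4 leading letters of a barcode were taken to name its line, and reads were summed per identifier over all libraries. The 3 lines hold 6457 of the 135360 barcode listings of the series, where a listing is 1 barcode in 1 library, and 8056080 of its 118983303 reads (6.77%). They carry 5282 of the 105528 distinct barcodes. No name of a cell line accompanied the barcodes, so the lines are called by their 4 letters.

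The pool had been injected into a vein of 129/Bl6 F1 mice, in which the labels call it syngeneic, and lungs were analysed 3 weeks later. All mice carried the same pool. The vehicle group (6 samples) had received vehicle before the injection, and the other group (5 samples) 6-hydroxydopamine (6-OHDA). No age, sex or dose of 6-OHDA was found in the labels. They do not say whether the libraries are from different mice, and p-values below therefore rest on a spread between libraries that may be technical. The lines are unnamed, and whether each is a clone was not given.

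Cells that reach the lung through the blood lodge in its capillaries, and those that survive and divide grow into colonies. A heritable DNA barcode marks the descendants of a tagged cell, so the number of distinct barcodes approximates the number of founding families, and the reads of a barcode follow the relative size of its family. Sympathetic nerves release noradrenaline and neuropeptide Y in the lung, and 6-OHDA is a toxin that enters their endings through the noradrenaline transporter and destroys them. The title of the series places these neurons and neuropeptide Y in the control of seeding. The number of colonies relates to seeding, and the size of a colony to growth after seeding. No library of the injected pool was among the samples. The cells and barcodes that each line contributed to the pool are therefore not known, and their part in differences between lines was not tested.

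A barcode had 20 bases. After the 4 letters of the line came 12 variable bases interrupted by 4 fixed G bases, in all 5282 barcodes of the 3 lines. The sequences below are those with the largest part of a line in any library and those that recurred in the most libraries, together with the largest AGAG barcodes of vehicle samples 6 and 3. They are shown because dominance and recurrence below turn on them, and capitals mark the line.
AGTC, largest part of the line: AGTCccaggtcgtacggagg
AGTC, most recurrent: AGTCttggaccgttagactg
CTTC, largest part of the line: CTTCtgcgcgggtgagcttg
CTTC, most recurrent: CTTCtttgttgggacggtgg
AGAG, largest part of the line: AGAGgttgttaggtcgttcg
AGAG, most recurrent: AGAGgcggttagttaggagg
AGAG, largest of vehicle sample 6: AGAGgtggcgagcaggcctg
AGAG, largest of vehicle sample 3: AGAGgtggcttgttggcttg

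The libraries held 6436469 to 15665492 reads. Each was thinned at random to the smallest total, and a barcode with 10 or more thinned reads was counted as a colony, which is 1.55 RPM (reads per 1000000 reads of the library). Libraries held 1965 to 11455 colonies of all lines before division by line. A colony here is a distinct barcode and need not be a single seeding event, because cells can share a barcode. Without molecular identifiers the reads are not independent molecules, and intervals on shares cover counting error only. No benchmark spike-in could be recognised by name, so sizes are parts of a library and not numbers of cells, and on this scale more colonies of a line at the same share leave a smaller mean size.

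Reads chose the lines, so their read totals are a description. AGTC had 3756541 reads (3.16% of all), CTTC 2331767 (1.96%) and AGAG 1967772 (1.65%). Just outside lay AGGT at rank 4, with 4702491 reads, and GGAA at rank 8, with 1801264. By the mean share over libraries, which gives each library equal weight, the 3 lines kept ranks 5, 6 and 7, while GGAA was 9th and CTGT 8th.

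Of the 6457 listings, 4895 had 10 or more deposited reads and 1067 had a single read. Listings under 10 reads held 0.0447% of the 3 lines' reads. After thinning, 4561 listings were colonies, 1763 of AGTC, 1228 of CTTC and 1570 of AGAG, and they carried 1394, 998 and 1315 distinct barcodes. By number of colonies the lines ranked 11th, 15th and 14th of all identifiers, well below their ranks by reads. Among the 22 identifiers with 5 or more colonies in every library, they ranked 3rd, 4th and 5th by mean colony size (geometric mean over libraries 211, 200 and 129 RPM). Mean size is the reads of a line's colonies over their number, and reads chose the lines, so these ranks are a description.

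AGTC held the most colonies and CTTC the fewest, and the order of AGTC over CTTC was the same in 11 of 11 libraries. The number of colonies of a line in a library ran from 51 to 295 for AGTC (median 151), from 31 to 201 for CTTC (median 121) and from 44 to 248 for AGAG (median 166). Within a library AGTC exceeded CTTC by 0.54 on the log2 scale (SE 0.05, adjusted p = 0.00150). The test is an exact two-sided permutation that flips the sign of the 11 within-library differences, adjusted over all 231 pairs of the 22 identifiers, of which 82.3% differed in colony number. Its smallest possible p before adjustment is 0.000977.

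AGAG lay between them, 0.19 below AGTC (SE 0.06, lower in 9 of 11 libraries, exact permutation adjusted p = 0.0149) and 0.34 above CTTC (SE 0.06, higher in 10 of 11 and equal in the other, exact permutation adjusted p = 0.00278). The gap to AGTC was 0.28 within vehicle, where AGAG was lower in 6 of 6 libraries, and 0.09 within the 6-OHDA group, where it was lower in 3 of 5. The place of AGAG also depended on the minimum. Its gap to AGTC no longer passed at a minimum of 2 reads (log2 0.09, exact permutation adjusted p = 0.234) or without thinning (log2 0.14, exact permutation adjusted p = 0.0852), and its gap to CTTC no longer passed at a minimum of 30 reads (log2 -0.16, exact permutation adjusted p = 0.0658).

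AGAG differed from AGTC and CTTC more in the typical size of a colony than in colony number. The median colony of a library ran from 22.8 to 243 RPM for AGTC (middle value 53.1), from 29.5 to 271 RPM for CTTC (61.8) and from 11.03 to 130 RPM for AGAG (18.7). AGAG had the lowest median of the 3 lines in 11 of 11 libraries. It lay 1.43 below AGTC (SE 0.19) and 1.60 below CTTC (SE 0.25) on the log2 scale, and both differences passed (exact permutation adjusted p = 0.00168 for each, where 83.1% of the 231 pairs differed). AGTC and CTTC differed by -0.16 (SE 0.16), which did not pass (exact permutation adjusted p = 0.380). Median size was added to the planned measures after the data had been seen.

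The gap between the mean and the median colony was wide in AGAG, most of all in vehicle. Its mean colony was 5.61 ± 2.28 times its median (SD, n = 11), against 3.42 ± 1.64 for AGTC and 2.74 ± 0.553 for CTTC. In vehicle the ratios were 6.51 ± 2.72 for AGAG, 2.69 ± 0.518 for AGTC and 2.49 ± 0.432 for CTTC (n = 6). With 6-OHDA they were 4.53 ± 0.996, 4.30 ± 2.15 and 3.04 ± 0.569 (n = 5), and in 6-OHDA samples 3 and 5 AGTC exceeded AGAG. The ratio was not tested between lines. Colonies under 20 RPM made up 52.2% of the AGAG colonies of all libraries pooled, and 33.6% and 31.7% of those of AGTC and CTTC. Colonies of 1000 RPM or more numbered 27 for AGAG (1.72% of its colonies), 56 for AGTC and 47 for CTTC, and they held 39.8%, 41.5% and 38.9% of the colony reads of their line. For AGAG that share was 55.0% over the vehicle samples and 12.3% over the 6-OHDA samples. These pooled shares are descriptions over unequal libraries.

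Dominance by a single barcode was measured as the largest barcode's percent of the reads of its line in a library. It ran from 4.81 to 28.7% for AGTC (median 13.7), from 7.59 to 27.7% for CTTC (median 13.1) and from 5.69 to 55.2% for AGAG (median 13.1). The widest 95% Wilson interval of these percentages spanned 0.558 percentage points.

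The highest value was AGAGgttgttaggtcgttcg in vehicle sample 1, which held 17210 RPM and 55.2% of the line's reads there. AGAGgtggcgagcaggcctg held 44.1% of AGAG in vehicle sample 6, and AGAGgtggcttgttggcttg 28.8% in vehicle sample 3. For AGTC the highest was AGTCccaggtcgtacggagg with 28.7% in 6-OHDA sample 5, at 15768 RPM. For CTTC it was CTTCtgcgcgggtgagcttg with 27.7%, also in 6-OHDA sample 5, at 5231 RPM. No difference between the 3 lines in this percentage passed (log2 differences of -0.15, -0.22 and -0.07 with SEs of 0.25, 0.31 and 0.38, lowest exact permutation adjusted p = 0.590, where 43.3% of the 231 pairs differed).

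In each line the largest barcode was another one in every library, giving 11 distinct barcodes per line. Of these, 4 of AGTC, 5 of CTTC and 5 of AGAG were also colonies in another library. The barcodes printed above show how their sizes varied between libraries. AGAGgttgttaggtcgttcg was a colony in 1 other library, 6-OHDA sample 1, at 193 RPM. CTTCtgcgcgggtgagcttg had a single read outside its library. AGTCccaggtcgtacggagg was a colony in 4 others, at 678 RPM in vehicle sample 1, 122 in vehicle sample 5, 410 in vehicle sample 6 and 29.7 in 6-OHDA sample 1.

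The effective number of colonies, the number of equal colonies that would give the same concentration of reads (inverse Simpson index), took all colonies into account. It ran from 7.01 to 58.0 for AGTC, from 10.6 to 33.8 for CTTC and from 3.13 to 64.7 for AGAG, far below the colony numbers. No difference between the lines passed over the 11 libraries (log2 differences of 0.21, 0.40 and 0.19 for AGTC minus CTTC, AGTC minus AGAG and CTTC minus AGAG, SEs 0.23, 0.40 and 0.40, lowest exact permutation adjusted p = 0.437, where 58% of the pairs differed). On average AGAG lay below both other lines among vehicle samples and above both among 6-OHDA samples. The mean log2 difference AGTC minus AGAG was 1.09 among the former and -0.44 among the latter, and CTTC minus AGAG 0.86 and -0.62.

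Recurrence was measured as the percent of a line's colonies in a library whose barcode was also a colony in 1 or more of the other 10 libraries. It was 38.7 ± 6.82% for AGTC, 36.2 ± 7.96% for CTTC and 30.6 ± 3.95% for AGAG (SD, n = 11). With few colonies per library these percentages are loose, and their 95% Wilson intervals span 10.8 to 33.2 percentage points. AGAG recurred less often than AGTC in 11 of 11 libraries, by 8.13 percentage points (SE 1.33, exact permutation adjusted p = 0.00159, where 79.2% of the 231 pairs differed).

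CTTC recurred 5.62 points more often than AGAG (SE 2.07, higher in 8 of 11 libraries, exact permutation adjusted p = 0.0298). This call ended without vehicle sample 1, 2 or 5 (exact permutation adjusted p = 0.0529, 0.113 and 0.116) and without 6-OHDA sample 2, 3, 4 or 5 (0.0726, 0.0570, 0.0648 and 0.0652), while the difference stayed between 4.10 and 6.53 points. AGTC and CTTC differed by 2.50 points (SE 1.85, exact permutation adjusted p = 0.252). That difference passed at a minimum of 2 reads (4.20 points, exact permutation adjusted p = 0.00873) and without 6-OHDA sample 5 (4.0 points, exact permutation adjusted p = 0.0317).

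Most recurring barcodes were shared by a pair of libraries. Of 267 recurring AGTC barcodes 199 were in 2 libraries and 25 in 4 or more. For CTTC the numbers were 139 and 8 of 180, and for AGAG 166 and 6 of 207. Over all identifiers of the series they were 7558 and 2232 of 12305. The most recurrent AGTC barcode, AGTCttggaccgttagactg, was a colony in 6 libraries, at 380 RPM in vehicle sample 4, 137 in vehicle sample 6, and 40.7, 606, 68.7 and 260 in 6-OHDA samples 1, 3, 4 and 5. The same barcode thus marked colonies from 40.7 to 606 RPM.

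CTTCtttgttgggacggtgg was a colony in 5 libraries, from 1.24 RPM (10 deposited reads) in vehicle sample 1 to 1768 RPM in vehicle sample 5. The first of these counted only because thinning kept all 10 reads. AGAGgcggttagttaggagg was a colony in 5 libraries, from 7.08 RPM in vehicle sample 2 to 368 in vehicle sample 6. Of the colony barcodes of the vehicle samples, 24.8% for AGTC, 23.1% for CTTC and 24.1% for AGAG were also colonies in a 6-OHDA sample. Of those of the 6-OHDA samples, 16.6%, 15.02% and 15.2% were also colonies in a vehicle sample. Over all identifiers of the series these shares were 35.9% and 24.5%. Both shares count the same shared barcodes, for AGTC 154, over 622 vehicle and 926 6-OHDA barcodes.

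Whether recurring barcodes formed larger colonies was asked within each library. For AGAG the median recurring colony averaged 55.1 RPM and the median of the others 25.6 RPM, larger in 7 of 11 libraries, a log2 difference of 0.73 (SE 0.32). It did not pass over the 17 identifiers tested (exact permutation adjusted p = 0.0648). For CTTC the log2 difference was 0.23 (SE 0.34, larger in 8 of 11, exact permutation adjusted p = 0.615) and for AGTC -0.00 (SE 0.29, larger in 8 of 11, exact permutation adjusted p = 0.989). Thus 0 of the 3 lines passed, against 52.9% of the 17 identifiers, all with larger recurring colonies, and a median log2 difference of 0.47. This test was added after the data had been seen.

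Against AGGT and GGAA, their neighbours by reads, the 3 lines had fewer colonies. Of the 231 pairs 82.3% differed in colony number, 79.2% in recurrence, 43.3% in the largest barcode's percent and 83.1% in median size. Each of the 3 had fewer colonies than AGGT in 11 of 11 libraries (log2 differences of -1.13, -1.66 and -1.32 for AGTC, CTTC and AGAG, exact permutation adjusted p = 0.00150 for each). Each also had fewer than GGAA, the line with fewer total reads (log2 differences of -0.65, -1.18 and -0.84, highest exact permutation adjusted p = 0.0195, with AGTC lower in 8, CTTC in 11 and AGAG in 10 of 11 libraries). In recurrence the 3 lines lay 9.79 to 17.9 points below AGGT and 15.1 to 23.2 points below GGAA, in 11 of 11 libraries in each case (exact permutation adjusted p = 0.00159). The number of colonies moved with recurrence here, and its part in the result was not tested. Among the 22 identifiers AGTC, CTTC and AGAG ranked 10th, 11th and 13th by mean recurrence, and AGGT and GGAA 6th and 5th. For CTGT, at rank 9 by reads, recurrence averaged 28.15%. For ACCT, at rank 10, it averaged 30.2%, and ACCT had 922 colonies over all libraries, fewer than AGTC, CTTC or AGAG.

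The largest barcode held a larger part of AGTC, CTTC and AGAG than of AGGT, by 1.13, 1.28 and 1.35 on the log2 scale (highest exact permutation adjusted p = 0.0301). Against GGAA the differences were 0.79, 0.94 and 1.01, and that of AGTC did not pass (exact permutation adjusted p = 0.0853, against 0.0400 for CTTC and AGAG). In ACCT, at rank 10 by reads, the largest barcode held 15.75% (geometric mean over libraries), against 12.8% in AGTC, 14.2% in CTTC and 14.9% in AGAG. The median colony of AGTC and CTTC was larger than that of both neighbours (log2 differences of 0.86 to 1.98, highest exact permutation adjusted p = 0.00293). That of AGAG was smaller than in AGGT (log2 -0.57, exact permutation adjusted p = 0.0175) and differed from GGAA by 0.38 (SE 0.29, exact permutation adjusted p = 0.251). The part of the lower colony numbers in these size differences was not tested.

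The next comparisons set 6-OHDA against vehicle. All 3 lines had more colonies in the 6-OHDA samples, by nearly the same factor, and none passed the threshold. AGTC had 295, 151, 204, 134 and 276 colonies in 6-OHDA samples 1 to 5, against 51 to 206 in vehicle (median 95.5). CTTC had 201, 121, 150, 104 and 183, against 31 to 151 (median 60). AGAG had 248, 166, 174, 140 and 244, against 44 to 188 (median 67). In each line 4 vehicle samples had fewer colonies than any 6-OHDA sample, and 6-OHDA samples 1 and 5 had more than any vehicle sample. The other vehicle samples, 3 and 4, lay within the 6-OHDA range in all 3 lines. Before thinning these held 15665492 and 13410390 reads, the most of their group, and 6-OHDA samples 1 and 5, which had the most colonies of each line, held 12814698 and 15427139, the most of theirs. The part of depth in the result was not tested beyond thinning.

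The group means were 212 ± 72.2 against 117 ± 68.8 colonies for AGTC, 152 ± 40.7 against 78.2 ± 48.9 for CTTC and 194 ± 48.8 against 99.7 ± 67.2 for AGAG (SD, n = 5 and 6). The log2 changes were 0.85 (SE 0.54), 0.96 (SE 0.57) and 0.96 (SE 0.55), with edgeR quasi-likelihood adjusted p-values of 0.197, 0.185 and 0.185. Over the 38 identifiers tested the median was 1.12, and 2.63% were called, 1 identifier that was lower in the 6-OHDA group, with 18.4% at an unadjusted p under 0.05. Relative to a trimmed mean over identifiers (TMM scaling, which moved the median over identifiers from 1.12 to 0.06) the changes of the 3 lines turned to -0.43, -0.28 and -0.22 and did not pass (lowest edgeR adjusted p = 0.137).

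Mean colony size was lower in the 6-OHDA samples in all 3 lines, and the difference passed for AGAG. AGAG colonies averaged 42.6, 94.3, 79.1, 87.3 and 54.1 RPM in 6-OHDA samples 1 to 5, against 55.6 to 636 RPM in vehicle (median 263). Only vehicle sample 4 lay within the 6-OHDA range, and the other 5 lay above it. The log2 change was -1.68 (SE 0.54, limma adjusted p = 0.0416). Of the 29 identifiers tested 20.7% were called, all lower (58.6% at an unadjusted p under 0.05), and the median change was -1.11. A single call among 3 lines is not read against that background as particular to AGAG.

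The AGAG call ended without vehicle samples 1, 5 or 6 (limma adjusted p = 0.109, 0.0696 and 0.0522) and without 6-OHDA samples 1, 2, 3 or 5 (0.116, 0.0590, 0.0951 and 0.0971), with log2 changes from -2.07 to -1.37 over all 11 analyses that left out a sample. It also ended by exact permutation per identifier (adjusted p = 0.0889), at a minimum of 2 reads (-1.73, limma adjusted p = 0.0590), without thinning (-1.71, limma adjusted p = 0.0742), with the replicate block (-1.51, limma adjusted p = 0.118) and when sizes were scaled to the reads of identifier GATC, tried as a reference although the labels do not say what it is (-1.13, limma adjusted p = 0.198). GATC was itself the identifier called lower in colony number in the 6-OHDA group (log2 -3.14, edgeR adjusted p = 0.04775). Its reads had a log2 change of -1.33 on the TMM scale (edgeR adjusted p = 0.1845). The part of these differences in the scaled sizes was not tested. Without each library's largest AGAG barcode the change in AGAG mean size was -1.31 (limma adjusted p = 0.0235), with 13 of 29 identifiers called, an analysis added after the data had been seen.

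AGTC colonies averaged 82.4, 136, 120, 162 and 199 RPM in 6-OHDA samples 1 to 5, against 124 to 543 RPM in vehicle (median 377). CTTC colonies averaged 78.4, 159, 112, 275 and 103 RPM, against 134 to 562 RPM (median 259). In AGTC 4 vehicle samples exceeded every 6-OHDA sample, and in CTTC 3 did. The log2 changes of -1.19 (SE 0.51) and -1.11 (SE 0.51) did not pass (limma adjusted p = 0.0623 for both). They passed without vehicle sample 3 (limma adjusted p = 0.0338 for both), without vehicle sample 4 (0.0141 and 0.0309), and for CTTC without 6-OHDA sample 4 (0.0445). Many identifiers passed in the same analyses, 15 of 28 without vehicle sample 3, 18 of 28 without vehicle sample 4 and 11 of 29 without 6-OHDA sample 4, so these calls are not particular to the lines.

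With the median colony in place of the mean, AGTC and CTTC passed and AGAG did not. The median was 28.6, 53.1, 22.8, 51.4 and 25.9 RPM for AGTC in 6-OHDA samples 1 to 5, against 49.8 to 243 RPM in vehicle (median 134), and all vehicle samples except sample 4 exceeded the whole 6-OHDA group. For CTTC it was 30.3, 42.6, 37.4, 114 and 29.5 RPM, against 61.2 to 271 RPM (median 102), and all 6-OHDA samples except sample 4 lay below every vehicle sample. On this measure AGTC fell by 1.76 and CTTC by 1.40 on the log2 scale (limma adjusted p = 0.0385 and 0.0458), and AGAG had -1.24 (limma adjusted p = 0.0709). On median size 8 of the 29 identifiers were called, and the median change was -1.13. The minimum of 10 reads bounds the median from below.

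Shares of reads are the values that chose the lines, here split by group. AGTC held 2.43, 2.06, 2.46, 2.17 and 5.48% of reads in 6-OHDA samples 1 to 5, against 2.55 to 4.02% in vehicle (median 3.10). Of the 5 values 4 lay below every vehicle sample and that of sample 5 above them all. In that sample AGTCccaggtcgtacggagg alone held 28.7% of the line. CTTC held 1.58, 1.92, 1.68, 2.86 and 1.89%, against 1.44 to 2.92% (median 1.70), with wide overlap.

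AGAG held 1.06, 1.57, 1.38, 1.22 and 1.33% in the 6-OHDA samples, against 1.02 to 3.11% in vehicle (median 2.01), with vehicle samples 1, 3 and 6 above the whole 6-OHDA group. Without its largest barcode in each library AGAG held 1.30 ± 0.306% in vehicle against 1.19 ± 0.160% with 6-OHDA, where the whole line had 1.99 ± 0.851% against 1.31 ± 0.187% (SD, n = 6 and 5). Relative to the TMM scale the log2 changes in reads were -0.55 (SE 0.29), -0.44 (SE 0.24) and -0.998 (SE 0.35) for AGTC, CTTC and AGAG. None passed in edgeR (adjusted p = 0.185, 0.216 and 0.0798), where 0% of 104 identifiers did and 32.7% had an unadjusted p under 0.05. Without each library's largest barcode the changes on that scale were -0.73, -0.56 and -0.67 (edgeR adjusted p = 0.10, 0.165 and 0.114), an analysis added after the data had been seen.

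The edgeR count was 0 in either direction, with 34 identifiers at an unadjusted p under 0.05, while DESeq2 called 25, among them AGAG (-1.12, adjusted p = 0.0181), and exact permutation 0, with 30 unadjusted. Without vehicle sample 4 edgeR also called AGAG (-1.12, adjusted p = 0.0471), as 1 of 23 identifiers called of 102. TMM left 55 identifiers higher and 49 lower with a median of 0.09, and scaling by library totals alone 66 and 38 with a median of 0.53. On library totals AGTC, CTTC and AGAG had -0.10, 0.03 and -0.60 (lowest edgeR adjusted p = 0.186), so the direction for CTTC depended on the scale.

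Of the measures of dominance, the effective number passed for AGAG and the largest barcode's percent did not. The largest barcode held 5.69, 10.1, 10.4, 13.1 and 7.35% of AGAG reads in 6-OHDA samples 1 to 5, against 6.16 to 55.2% in vehicle (median 23.9). All vehicle samples except sample 4 exceeded the whole 6-OHDA group. The log2 change was -1.34 (SE 0.51), which did not pass (limma adjusted p = 0.0536), and 13.8% of the 29 identifiers were called, all lower (27.6% at an unadjusted p under 0.05). It passed without vehicle sample 3 (limma adjusted p = 0.0450), where 10 of 28 identifiers were called, without vehicle sample 4 (0.00959), where 7 of 28 were, and at a minimum of 30 reads (0.0472), where 5 of 28 were. The SE of the largest-barcode change was 0.51 for each of the 3 lines, as limma used a common variance for the identifiers. It is not the spread of a single line between libraries. By exact permutation AGAG had p = 0.0455 and adjusted p = 0.220.

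By the effective number of colonies AGAG passed, at 64.7, 32.0, 30.8, 19.4 and 43.0 in 6-OHDA samples 1 to 5 against 3.13 to 49.7 in vehicle (median 10.2). Vehicle sample 4, at 49.7, lay among the 6-OHDA samples, and the other vehicle samples all lay below them. AGAG rose by 1.86 on the log2 scale (SE 0.63, limma adjusted p = 0.0466), with 10.3% of the 29 identifiers called, all higher, 34.5% at an unadjusted p under 0.05, and a median change of 0.97. The call ended without vehicle samples 1, 2, 5 or 6 (limma adjusted p = 0.152, 0.0814, 0.151 and 0.0899), without 6-OHDA samples 1, 2 or 5 (0.141, 0.0804 and 0.134), with the replicate block (1.65, limma adjusted p = 0.157) and by exact permutation (adjusted p = 0.164). An effective number can rise with the number of colonies, whose part in the result was not tested. As a percent of AGAG colonies it ran from 13.85 to 26.1% with 6-OHDA and from 5.39 to 27.15% in vehicle, so the groups overlapped.

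In AGTC the largest barcode held 6.72, 6.99, 18.3, 7.69 and 28.7% in 6-OHDA samples 1 to 5, against 4.81 to 27.7% in vehicle (median 15.05). In CTTC it held 13.1, 12.7, 13.5, 7.59 and 27.7%, against 10.4 to 23.3% (median 13.7). The groups overlapped in both lines, with log2 changes of -0.31 and -0.10 (SE 0.51 each, limma adjusted p = 0.690 and 0.875). The effective numbers had changes of 0.33 (SE 0.61) and 0.37 (SE 0.58), which did not pass either (limma adjusted p = 0.639 and 0.587). Leaving out single libraries moved the AGTC largest-barcode change from -0.64 (without 6-OHDA sample 5) to -0.11 (without vehicle sample 6), and that of CTTC from -0.36 (without 6-OHDA sample 5) to 0.11 (without 6-OHDA sample 4). The effective number ran from 0.038 (without 6-OHDA sample 1) to 0.80 (without 6-OHDA sample 5) for AGTC, and from 0.22 (without vehicle sample 2) to 0.62 (without 6-OHDA sample 5) for CTTC.

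Recurrence was lower in the 6-OHDA samples in all 3 lines, and none passed. It was 34.9, 37.1, 35.8, 32.8 and 31.9% for AGTC in 6-OHDA samples 1 to 5, against 32.2 to 51.0% in vehicle (median 43.5). It was 25.9, 37.2, 34.0, 34.6 and 36.6% for CTTC, against 27.2 to 48.8% (median 37.7). For AGAG it was 27.4, 27.7, 31.0, 24.3 and 27.9%, against 29.3 to 38.8% (median 32.6), and all 6-OHDA samples except sample 3 lay below the vehicle range.

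The changes were -7.73 points for AGTC (SE 3.46), -4.68 for CTTC (SE 4.52) and -5.36 for AGAG (SE 2.23), with limma adjusted p-values of 0.221, 0.582 and 0.193. Single libraries moved them, for AGTC from -11.5 (without vehicle sample 3) to -5.38 (without vehicle sample 5), for CTTC from -7.17 (without 6-OHDA sample 5) to -1.48 (without vehicle sample 5) and for AGAG from -7.00 (without vehicle sample 3) to -2.92 (without 6-OHDA sample 1). Limma called 0 of 29 identifiers (0%), with 6 (20.7%) at an unadjusted p under 0.05, and exact permutation called 0 with 6 unadjusted. The median change was -3.73 points. A colony of a vehicle sample had 5 6-OHDA libraries, with their larger numbers of colonies, among the others, and one of a 6-OHDA sample had 4, so the measure does not treat the groups alike.

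Counted instead as the mean share of a sample's colonies found in each other sample of its own group, the direction turned. AGTC had 6.48 ± 2.27% in vehicle against 7.32 ± 0.792% with 6-OHDA, CTTC 4.30 ± 1.98% against 6.84 ± 1.37%, and AGAG 3.38 ± 0.801% against 4.57 ± 0.693% (SD, n = 6 and 5). The differences were 0.84, 2.54 and 1.19 points (limma adjusted p = 0.462, 0.0428 and 0.0667), and 19 of the 29 identifiers passed. The mean number of colonies in the samples searched was also higher with 6-OHDA, and its part in the result was not tested.

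Whether the 3 lines differed from one another in their change with 6-OHDA was tested on the difference between lines within each library, with the group labels permuted over all splits and p-values adjusted over the 231 pairs. The changes in colony number differed by -0.15 between AGTC and CTTC, by -0.19 between AGTC and AGAG and by -0.04 between CTTC and AGAG on the log2 scale (exact permutation adjusted p = 0.289, 0.312 and 0.840). In effective number the change of AGAG exceeded that of AGTC by 1.53 and that of CTTC by 1.49, and neither passed (exact permutation p = 0.0325 and 0.0649, adjusted p = 0.337 for both).

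In the largest barcode's percent the change of AGTC minus that of AGAG was 1.04 and of CTTC minus that of AGAG 1.24 (exact permutation adjusted p = 0.571 for both). In recurrence the changes of the lines differed by -3.05, -2.36 and 0.68 points in the same order as for colony number (lowest exact permutation adjusted p = 0.863). The test called 0% of the pairs for each of these measures. At an unadjusted p under 0.05 there were 43 pairs (18.6%) for colony number, 30 (13%) for effective number, 12 (5.19%) for the largest barcode and 15 (6.49%) for recurrence. The change in AGAG was thus not shown to differ from that in AGTC or CTTC.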

How the data were processed

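Barcodes were amplified from 32 µg of lung genomic DNA in 27 PCR cycles after a benchmark spike-in line had been added, per the labels' protocols. Per the file headers, the authors deposited a table of read counts per barcode cluster for every sample. The clustering tool is not given in the sources used here. A score per cluster was also deposited and not used. The 4 listings with an undetermined base were dropped. Reading the 4 leading bases as the line is an inference from the layout.

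Groups and numbers came from the sample titles, since the library names carry the same word for both groups. Libraries were thinned without replacement to 6436469 reads, and repeating this 20 times moved a line's log2 colony number by an SD of at most 0.0272. Colony numbers were tested with edgeR 4.0.16 (quasi-likelihood, equal library sizes, identifiers with 5 or more colonies in 1 or more samples) and reads with edgeR after TMM scaling (identifiers with 10 or more reads in at least 50% of a group's samples). For size, dominance and recurrence limma 3.58.1 was used, on identifiers that had 5 or more colonies in 3 or more samples of both groups. For edgeR, a standard error was taken as the size of the log2 change over the root of the F statistic. All p-values are two-sided, and adjusted values are Benjamini-Hochberg over all identifiers or pairs of identifiers, at 0.05. DESeq2 1.42.0 was an alternative. Other software was scipy 1.17.1, pandas 2.3.3, numpy 2.4.6, Python 3.11.15 and R 4.3.3. The edgeR test of colony numbers and limma were run on simulated data, and the permutation tests on small made-up examples. In the simulation identifiers were independent and changes went in both directions, so a shift shared by most identifiers was not covered. The edgeR test of reads and DESeq2 were not simulated.

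The lines, measures and tests were chosen with earlier results of these data known. The lines and their neighbours at ranks 4 and 8 were named by rule, with 3 barcodes per line picked by summed RPM, largest share and recurrence. The same barcode met the first and second criteria in each line. The AGAG barcodes of vehicle samples 3 and 6, and CTGT and ACCT, were added after their values were seen.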

Additional observations from a re-analysis of the deposited data

Results flagged for a closer look

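A sample stood far from the rest of its group in 6 of 42 groups of values examined for the 3 lines, where the nominal rate of the rule is about 1 in 20. Whether that rate holds for values distributed as these are was not tested. The groups of values are not independent of one another. The AGTC share of reads was 5.48% in 6-OHDA sample 5, with the next at 2.46%. Its effective number of colonies was 53.7 in vehicle sample 4, next to 26.1. The CTTC share was 2.86% in 6-OHDA sample 4, next to 1.92%, and its median colony there was 114 RPM, next to 42.6 RPM. Recurrence of CTTC was 25.9% in 6-OHDA sample 1, next to 34.0%. The AGAG effective number was 49.7 in vehicle sample 4, next to 10.97.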

How the results depend on the processing

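Log2 changes with 6-OHDA and adjusted p-values depended on single samples and on the settings below, and the cause was not tested. Relative to a trimmed mean over identifiers (TMM) the colony numbers of AGTC, CTTC and AGAG turned to -0.43, -0.28 and -0.22. For reads, CTTC turned to 0.028 on library totals and 0.040 by exact permutation, and AGAG was called by DESeq2 (-1.12). Mean size passed without the largest barcode for AGTC (-1.17) and CTTC (-1.12), and as median size (-1.76 and -1.40). For AGAG it lost its call at a minimum of 2 reads (-1.73), without thinning (-1.71), as median size (-1.24), scaled to GATC (-1.13) and by exact permutation (-1.68). The AGAG largest-barcode share passed at a minimum of 30 reads (-1.34), and its effective number lost its call by exact permutation (1.86). Recurrence within the same group turned to 0.84, 2.54 and 1.19 points.

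Counts of identifiers called moved as follows. For colony number, 1 became 0 at a minimum of 30 reads, without thinning, by TMM and by exact permutation. For reads, 0 became 25 by DESeq2. For mean size, 6 became 0 at a minimum of 2 reads, without thinning, scaled to GATC and by exact permutation, and 13 without the largest barcode. For the largest barcode's share, 4 became 0 at a minimum of 2 reads, with barcodes 1 base apart merged, for the 10 largest barcodes and by exact permutation. For effective number, 3 became 6 at a minimum of 2 reads and 0 by exact permutation. For recurrence, 0 became 19 within the same group.

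Between lines, AGTC minus AGAG in colony number no longer passed at a minimum of 2 reads (0.089) or without thinning (0.14), nor CTTC minus AGAG at 30 (-0.16). AGTC minus CTTC in recurrence passed at 2 (4.20 points). Within 6-OHDA samples AGTC minus AGAG and CTTC minus AGAG turned to 0.34 and 0.61 in the largest barcode's percent and to -0.44 and -0.62 in effective number. Median size of AGTC minus CTTC was 0.0021 within vehicle samples. The change in recurrence of CTTC minus that of AGAG turned to -0.25 points at a minimum of 2 reads and -0.45 without thinning.

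Leaving out each sample in turn gave these ranges. Identifiers called ran from 0 to 4 for colony number, 0 to 23 for reads, 0 to 18 for mean size, 0 to 10 for the largest barcode and 0 to 12 for effective number. Reads of AGAG ran from -1.28 to -0.79. Mean size ran from -1.46 to -1.02 for AGTC, -1.38 to -0.91 for CTTC and -2.07 to -1.37 for AGAG. The largest barcode's share ran from -0.36 to 0.11 for CTTC and -1.72 to -1.09 for AGAG, and the effective number of AGAG from 1.53 to 2.33. CTTC minus AGAG ran from -0.27 to 0.10 in the largest barcode's percent, from -0.00028 to 0.40 in effective number and from 4.1 to 6.53 points in recurrence. AGTC minus CTTC in recurrence ran from 1.03 to 4.0 points. Differences in change ran from -0.11 to 0.026 (CTTC minus AGAG, colony number), -0.51 to 0.018 (AGTC minus CTTC, largest barcode), -0.26 to 0.18 (AGTC minus CTTC, effective number) and -2.49 to 3.24 points (CTTC minus AGAG, recurrence).

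Replicate numbers 1 to 5 are shared by the groups, but same-numbered samples did not deviate together (r from -0.12 to 0.20, over 0.1 in 1 of 5 pairs, own number the best match in 1 of 5), so they were not treated as paired. With the replicate block, AGAG had -1.51 for mean size and 1.65 for effective number, both no longer called, and 0 identifiers were called for colony number, mean size, largest barcode and effective number. Differences in change turned to 0.026 (CTTC minus AGAG, colony number), 0.018 (AGTC minus CTTC, largest barcode) and -0.68 points (CTTC minus AGAG, recurrence), where the smallest p the exact test allows is 0.0625.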

Other observations

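Colonies of 1000 RPM or more held 55.0% of AGAG colony reads over the vehicle samples (21 colonies) and 12.3% over the 6-OHDA samples (6 colonies). For AGTC the shares were 44.6% (38 colonies) and 37.5% (18), and for CTTC 47.6% (32) and 28.6% (15). These shares are pooled over unequal libraries and were not tested. In vehicle samples 1, 6 and 3 a single barcode held 55.2, 44.1 and 28.8% of AGAG reads, and vehicle sample 4 had 0 AGAG colonies of this size.

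At the 12 variable positions G made up 30.6% of bases in AGTC, 29.5% in CTTC and 31.6% in AGAG, against 26.2% in the other identifiers. These shares are over distinct barcodes and were not tested.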
